A study of Mus musculus with 6 samples.

Results

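The genes described here are 6 transcription factors that act in epithelial-mesenchymal transition (Snai1, Snai2, Zeb1, Zeb2, Twist1 and Twist2) and 3 structural genes read as markers of the epithelial or mesenchymal state (Cdh1, Cdh2 and Vim). They were chosen by gene symbol, and 8 of the 9 were measured, out of 19505 genes in all. Each of the 8 had 1 probe set. Zeb2 had none under its symbol in the platform annotation and was not analysed here. The data come from 6 Affymetrix arrays of salivary glands of mouse embryos of the stage written T13, 3 of glands exposed to TGF-β1 and 3 of untreated control glands, all kept in culture for 72 hours. The labels give no strain, no type of salivary gland, no dose of TGF-β1 and no litter or culture behind a replicate number, so the spread between arrays may be technical. The whole gland was used, so that a transcript of 1 tissue layer is diluted by the others. In such bulk samples fewer cells of a type and less RNA per cell cannot be told apart.

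In epithelial-mesenchymal transition, epithelial cells lose their junctions and take on the shape and motility of mesenchymal cells. The Snail factors (Snai1, Snai2) and the ZEB factors are zinc finger repressors that bind E-box sequences, among them those of the E-cadherin gene Cdh1, and the Twist factors are basic helix-loop-helix proteins that bind E-boxes with partners such as Tcf3 and Tcf12. TGF-β1 is a classical inducer of these factors in cultured epithelial cells. An embryonic salivary gland is a branching epithelium inside a mesenchyme that normally expresses Twist1, Snai2, Zeb1 and vimentin, so these transcripts are present in the untreated organ as well.

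To show what regulatory sequence lies in front of these genes, the 250 bases before the annotated start are given for the 4 measured members with a single window in the RefSeq promoter table (mouse build GRCm38.p6, plus strand). Capitals mark the E-box CACCTG that Snail and ZEB factors bind, the CCAAT box and the TATA box TATAAA, each searched on both strands. No match overlapped another.
Snai1, chr2:167537945-167538194: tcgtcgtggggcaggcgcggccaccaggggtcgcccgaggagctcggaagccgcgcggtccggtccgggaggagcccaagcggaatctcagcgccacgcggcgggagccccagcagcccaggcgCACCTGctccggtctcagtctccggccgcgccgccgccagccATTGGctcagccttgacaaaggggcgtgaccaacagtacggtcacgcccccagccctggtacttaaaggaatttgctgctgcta
Twist1, chr12:33957421-33957670: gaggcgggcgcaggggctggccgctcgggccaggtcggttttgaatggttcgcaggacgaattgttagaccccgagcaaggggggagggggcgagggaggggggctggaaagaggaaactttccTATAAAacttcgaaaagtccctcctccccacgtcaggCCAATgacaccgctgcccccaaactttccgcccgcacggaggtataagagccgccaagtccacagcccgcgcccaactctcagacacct
Twist2, chr1:91801211-91801460: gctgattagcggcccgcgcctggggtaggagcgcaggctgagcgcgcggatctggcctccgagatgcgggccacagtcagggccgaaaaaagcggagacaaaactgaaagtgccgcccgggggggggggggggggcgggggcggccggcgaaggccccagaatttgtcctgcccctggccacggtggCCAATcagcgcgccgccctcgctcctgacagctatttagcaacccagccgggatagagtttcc
Vim, chr2:13574061-13574310: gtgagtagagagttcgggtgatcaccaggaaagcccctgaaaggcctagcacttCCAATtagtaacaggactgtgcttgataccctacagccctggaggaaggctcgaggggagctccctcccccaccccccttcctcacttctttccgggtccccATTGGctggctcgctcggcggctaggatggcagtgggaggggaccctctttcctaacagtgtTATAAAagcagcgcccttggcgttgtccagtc

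The E-box was found in 1 of these 4 windows, that of Snai1, where it spans the bases 126 to 121 before the start. It was found in 17.2% of the 32851 windows of this length in the table. All 4 windows held a CCAAT box, against 33.8% of all windows, and Vim held 2 of them. The TATA box was in the windows of Twist1 and Vim, against 12.4% of all windows. In Vim it ended 27 bases before the start, and in Twist1 it lay farther away, ending 121 bases before it. The motifs were chosen after these windows had been read, and a match describes letters, not binding.

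The 6 arrays were not alike, and the labels do not say why. The Pearson correlation of control 3 with the other arrays over all genes was 0.550 to 0.601, and the other arrays correlated at 0.948 to 0.990 with each other, the lowest of these being those of TGF-β1 3. Gapdh, a glycolytic enzyme, was at a log2 value of 6.21 in control 3 against 11.87 to 11.98 in the other arrays, and Actb, which encodes β-actin, at 8.91 against 12.70 to 13.34. Of 9 measured salivary gland markers, 9 lay above the array's own lower quartile in each TGF-β1 array, and 9, 7 and 7 in controls 1, 2 and 3. Above the array's own median lay 8 in each TGF-β1 array, and 5, 3 and 4 in controls 1, 2 and 3. That count separates the groups and does not set control 3 apart from controls 1 and 2. Of 19 genes typical of epithelia, 19 lay above the array's own lower quartile in every array but control 3, where 18 did. The members are therefore given for the 6 arrays, without control 3, and without control 3 and TGF-β1 3. The other gene lists are given from the array-weighted fit and without control 3 and TGF-β1 3, because in the unweighted fits of 6 arrays and of the 5 without control 3 none of their genes passed.

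Cdh1 encodes E-cadherin, the adhesion molecule of epithelial adherens junctions, whose loss defines the transition. Its log2 value was 12.83, 12.80 and 11.63 in TGF-β1 1, 2 and 3, against 12.45, 11.95 and 8.30 in controls 1, 2 and 3. TGF-β1 1 and 2 were the highest arrays, TGF-β1 3 lay below controls 1 and 2, and control 3 was far below all others. The groups overlapped. The mean was 12.42 ± 0.68 in the TGF-β1 arrays, against 10.90 ± 2.26 in the untreated ones (SD, n = 3 each), a difference of 1.52 ± 1.06 (SE; limma adjusted p = 0.776) on the log2 scale. Without control 3 the difference was 0.22 (95% confidence interval -0.77 to 1.21), and without control 3 and TGF-β1 3 it was 0.61 (0.16 to 1.07, limma adjusted p = 0.164). A lower Cdh1 level in the TGF-β1 arrays appeared in none of these estimates, although the 95% confidence intervals over 6 arrays and without control 3 reach down to -0.98 and -0.77.

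Cdh2 encodes N-cadherin, the cadherin of neurons, muscle and mesenchyme that replaces E-cadherin in the cadherin switch of the transition. It was at 8.13, 7.96 and 8.55 in TGF-β1 1, 2 and 3, against 7.67, 8.02 and 8.37 in the controls. The groups interleaved, with TGF-β1 3 the highest array and control 1 the lowest. The difference was 0.20 ± 0.35 (SE; limma adjusted p = 0.809) over the 6 arrays and 0.37 without control 3 (95% confidence interval -0.20 to 0.95). Quantile normalization of the 6 arrays turned its sign, to -0.056.

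**Figure D1:**
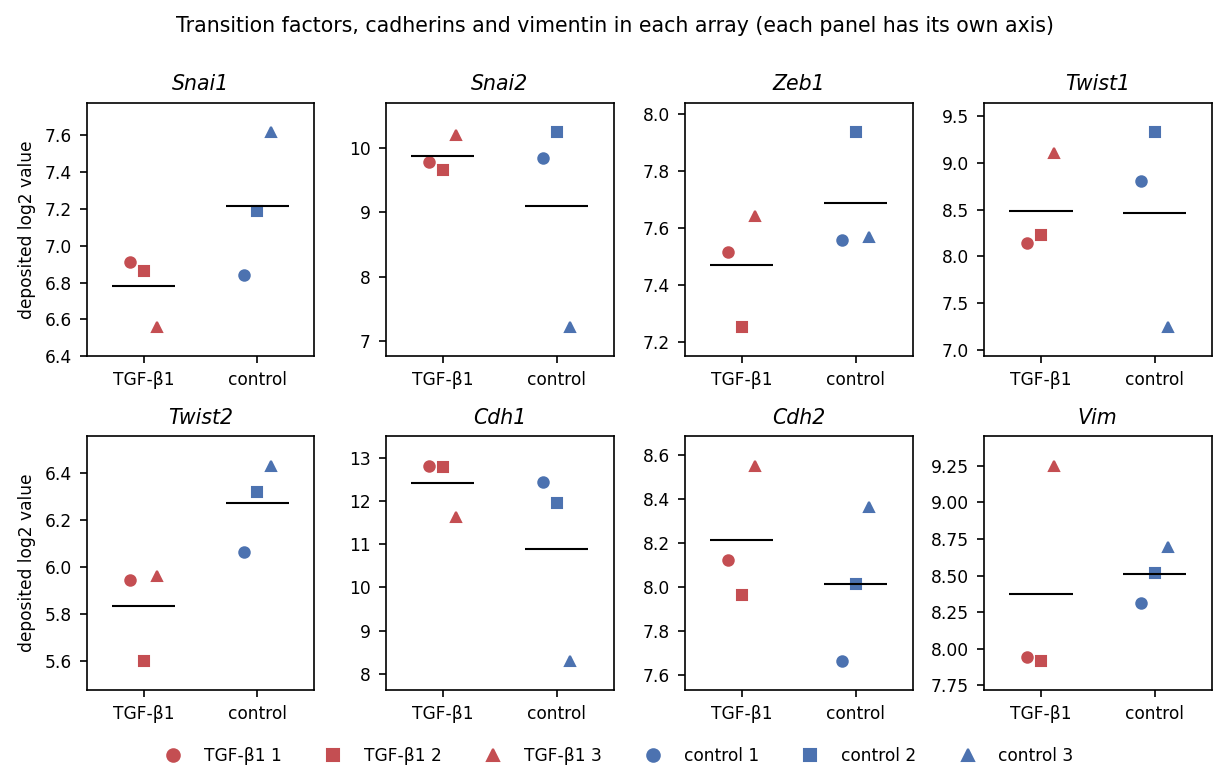
Deposited log2 value (vertical axis, separate for each panel) of the 8 measured members in each of the 6 arrays, TGF-β1 arrays left and controls right; the symbol gives the replicate and the line the group mean. Control 3 is far below the others for Snai2, Twist1 and Cdh1, TGF-β1 3 is the highest array for Vim, and the groups do not overlap for Twist2 alone.

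Vim encodes vimentin, the intermediate filament of mesenchymal cells. It was at 7.94, 7.92 and 9.25 in TGF-β1 1, 2 and 3, against 8.31, 8.52 and 8.70 in controls 1, 2 and 3. TGF-β1 1 and 2 were the 2 lowest arrays and TGF-β1 3 the highest. The difference was -0.14 ± 0.44 (SE; limma adjusted p = 0.891) over the 6 arrays, -0.04 without control 3 and -0.48 without control 3 and TGF-β1 3 (95% confidence interval -0.84 to -0.13, limma adjusted p = 0.156). TGF-β1 3 thus decided the size of the Vim estimate.

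Twist1, which marks head and gland mesenchyme, had the widest gap among the factors when control 3 was set aside. It was at 8.14, 8.23 and 9.11 in TGF-β1 1, 2 and 3, against 8.80, 9.33 and 7.25 in controls 1, 2 and 3. TGF-β1 1 and 2 lay below controls 1 and 2, TGF-β1 3 lay between those controls, and control 3 was the lowest array. Over the 6 arrays the difference was 0.03 ± 0.59 (SE; limma adjusted p = 0.983). It was -0.58 without control 3 (95% confidence interval -1.42 to 0.26) and -0.89 without control 3 and TGF-β1 3 (-1.36 to -0.42, limma adjusted p = 0.0716).

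A limma fit with array weights, which estimates how reliable each array is from its residuals over all genes, put TGF-β1 3 at a weight of 0.398 and control 3 at 0.0338, with 1.65 to 4.52 for the remaining arrays. In that fit Twist1 fell by 0.96 on the log2 scale (SE 0.20, adjusted p = 0.0135), to 0.515 times the control level. It was the only 1 of the 8 members that passed an adjusted p under 0.05 there, where 6.88% of all genes passed, 3.44% as lower. The estimation of the weights stopped before its convergence tolerance and treats them as known, which makes the p-values too small. With control 3 left out, the weighted fit passed 0 of 8 members, where 2.79% of all genes passed, and the adjusted p of Twist1 was 0.0837.

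Twist2, the close relative of Twist1 in dermal and other mesenchyme, was at 5.94, 5.60 and 5.96 in the TGF-β1 arrays, against 6.06, 6.32 and 6.43 in the controls. All 3 TGF-β1 arrays lay below all 3 controls. All 6 values lay below the median of their own array. The difference was -0.43 ± 0.31 (SE; limma adjusted p = 0.776), and -0.35 without control 3. Twist2 was 1 of 8 members with non-overlapping groups, where 11.6% of all genes had them, 5.78% as lower, and 1 of 8 again without control 3, where 25.2% of all genes did, 12.3% as lower.

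Snai1, the founding Snail factor and an early TGF-β response gene in cell lines, was at 6.91, 6.86 and 6.56 in the TGF-β1 arrays, against 6.84, 7.19 and 7.62 in the controls. TGF-β1 3 was the lowest array, control 3 the highest, and the rest interleaved. The difference was -0.44 ± 0.34 (SE; limma adjusted p = 0.776) over the 6 arrays and -0.24 without control 3, with a 95% confidence interval of -0.73 to 0.25.

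Snai2, also called Slug, is a Snail factor of neural crest and mesenchyme. It was at 9.78, 9.65 and 10.20 in the TGF-β1 arrays, against 9.84, 10.25 and 7.22 in controls 1, 2 and 3. The 3 TGF-β1 arrays and controls 1 and 2 lay within a narrow band and control 3 far below it. The 6-array difference of 0.78 ± 0.77 (SE; limma adjusted p = 0.776) rests on control 3. Without that array it was -0.17 (95% confidence interval -0.74 to 0.41).

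Zeb1, the ZEB repressor measured here, was at 7.52, 7.25 and 7.64 in the TGF-β1 arrays, against 7.56, 7.94 and 7.57 in the controls. TGF-β1 2 was the lowest array and control 2 the highest, and TGF-β1 3 lay above controls 1 and 3. The difference was -0.22 ± 0.31 (SE; limma adjusted p = 0.783), and -0.28 without control 3 (95% confidence interval -0.78 to 0.22). Control 3 was not low for Zeb1, unlike for Snai2 and Twist1.

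**Figure D2:**
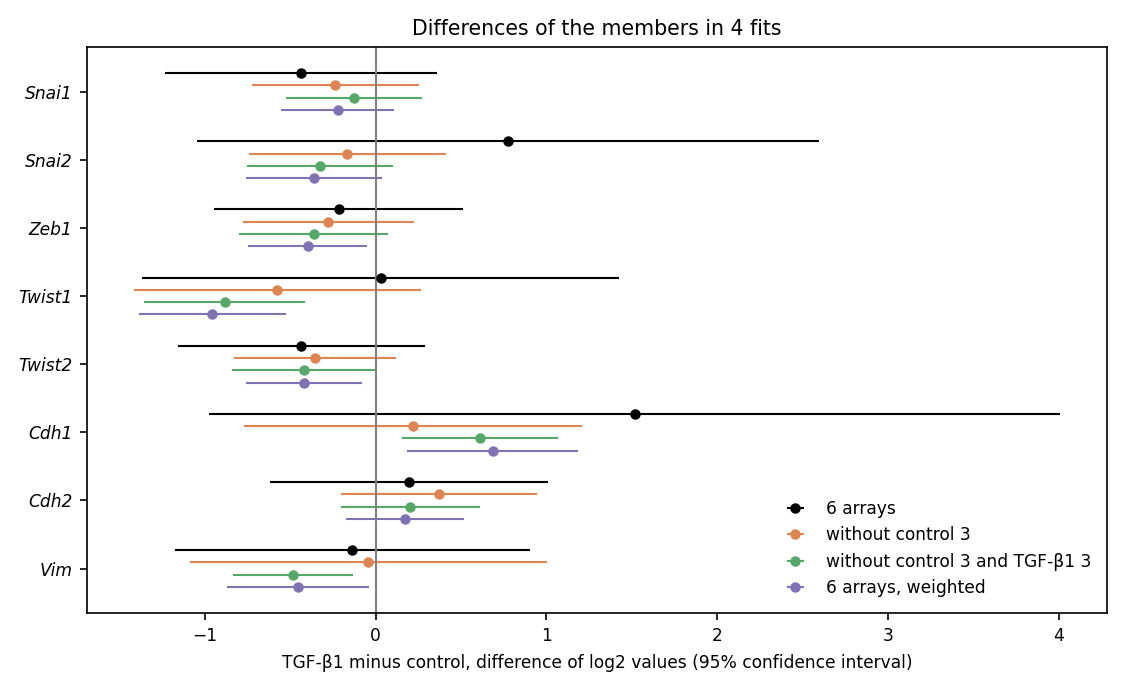
Difference of TGF-β1 minus control in log2 units (horizontal axis) for the 8 measured members in 4 limma fits, with 95% confidence intervals. The 6-array intervals are widest for Cdh1, Snai2 and Twist1, and the estimates of Snai2 and Twist1 change sign when control 3 is left out.

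Of the members, 0 of 8 passed in the unweighted limma fit of 6 arrays, where 0% of all genes passed, and 0 of 8 had an unadjusted p under 0.05 (389 of all 19505 genes). Without control 3 these counts were 0 of 8 passed, with 0% of all genes, and 0 of 8 at an unadjusted p under 0.05 (1487 of all genes). Without control 3 and TGF-β1 3, 0 of 8 passed where 2.59% of all genes did, and 3 of 8, namely Twist1, Cdh1 and Vim, had an unadjusted p under 0.05 (3294 of all genes). In those 4 arrays the difference was 0.20 for Cdh2, -0.42 for Twist2, -0.36 for Zeb1, -0.33 for Snai2 and -0.13 for Snai1. There, 6 of 8 members had non-overlapping groups, Cdh1 higher and Snai2, Zeb1, Twist1, Twist2 and Vim lower in the TGF-β1 arrays, where 47.4% of all genes had them, 24.4% as higher and 23% as lower. Those 4 arrays leave out TGF-β1 3, in which Cdh1 was below controls 1 and 2 and Vim above all controls, and with it only Twist2 did not overlap. The median difference of the members was -0.05 over 6 arrays, against -0.14 for all genes. Without control 3 it was -0.20 against 0.01, and without control 3 and TGF-β1 3 -0.35 against 0.01.

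The balance of the epithelial and mesenchymal genes within an array is free of a shift common to the whole array. Cdh1 minus Vim was 4.88, 4.88 and 2.38 in TGF-β1 1, 2 and 3, against 4.14, 3.43 and -0.39 in controls 1, 2 and 3. Its size has no meaning, since it joins 2 probe sets, so only its change between arrays is read. It does not remove a change of scale, and the interquartile range was 2.05 in control 3 and 3.17 to 3.26 in the other arrays. The value of control 3, and the 6-array differences that include it, are therefore no measure of an epithelial or mesenchymal balance. It was highest in TGF-β1 1 and 2, and TGF-β1 3 lay below controls 1 and 2. Cdh1 minus Twist1 was 4.69, 4.57 and 2.53 in the TGF-β1 arrays, against 3.65, 2.62 and 1.06 in the controls. Cdh1 minus Cdh2, the pair of the cadherin switch, was 4.70, 4.83 and 3.08, against 4.79, 3.93 and -0.06, and here TGF-β1 1 and 2 lay around control 1. The mean difference between the groups for Cdh1 minus Vim was 1.65 over 6 arrays, 0.26 without control 3 and 1.09 without control 3 and TGF-β1 3. For Cdh1 minus Cdh2 it was 1.32 over 6 arrays, -0.15 without control 3 and 0.41 without control 3 and TGF-β1 3, so that its sign turned with the arrays used.

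**Figure D3:**
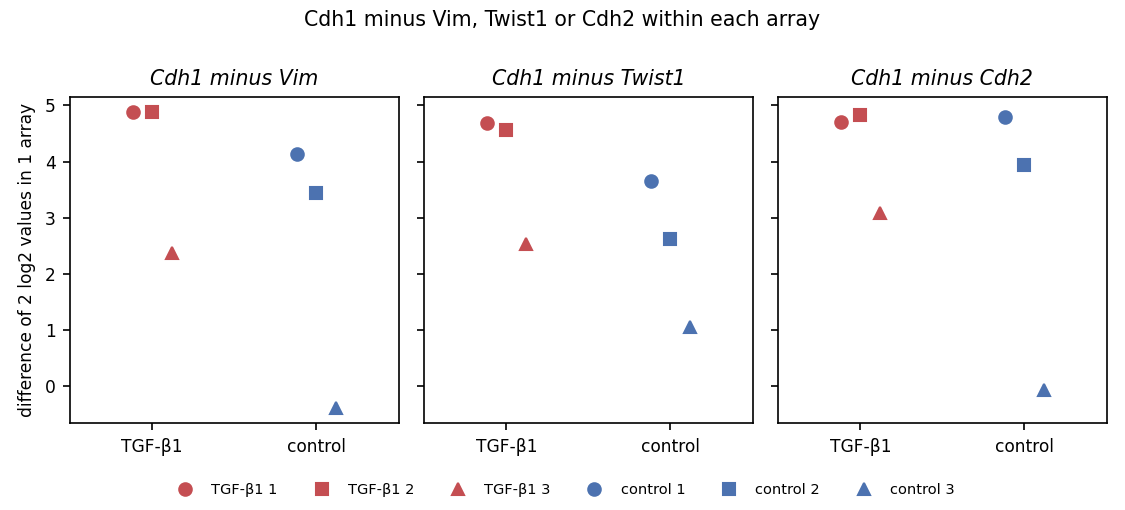
Difference between the log2 value of Cdh1 and that of Vim, Twist1 or Cdh2 in the same array (vertical axis), TGF-β1 arrays left and controls right. TGF-β1 1 and 2 are the highest arrays for Cdh1 minus Vim (both 4.88) and TGF-β1 3 (2.38) is below controls 1 and 2.

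Replicates of 1 group differed along the same line. Control 2 was lower than control 1 in Cdh1 by 0.50 and higher in all 7 other members, by 0.20 to 0.53. The shift between these untreated arrays, -0.50 in Cdh1 and 0.53 in Twist1, stands beside group differences of 0.61 and -0.89 without control 3 and TGF-β1 3. Within the TGF-β1 arrays, TGF-β1 3 differed from the mean of the other 2 by -1.18 in Cdh1, 0.92 in Twist1 and 1.32 in Vim. It was higher in 6 of the 7 members other than Cdh1, Snai1 being the exception. The part of tissue composition or RNA quality in these shifts was not tested.

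Some genes of epithelial adhesion and identity rose in the array-weighted fit, in which 3.45% of all genes passed as higher. Of 12 factors that hold the epithelial state, 4 rose and 0 fell. Elf5 and Ehf, ETS factors of glandular epithelium, rose by 2.24 (SE 0.25, adjusted p = 5.70e-04) and by 1.71, and Esrp2, a splicing regulator of epithelia, by 1.31. Without control 3 and TGF-β1 3, 1 of the 12 passed, Elf5 (adjusted p = 0.0207), and Ehf (0.0618) and Esrp2 (0.0948) did not. The median of the list was 0.62 with weights and 0.39 without control 3, against 0.01 for all genes in both fits. With weights 9 of the 12 differences were positive. Klf4 of this list differed by -0.56 with weights (adjusted p = 0.0597). Its TGF-β1 arrays (8.10, 8.09 and 7.21) all lay below its controls (8.68, 8.58 and 8.89). Without control 3, 3 of the 12 had all TGF-β1 arrays above both controls and 1 below. Of all genes 12.8% lay above and 12.3% below.

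Of 10 measured catenins, nectins and other adherens junction proteins, 3 rose with array weights and 0 fell. Nectin4, an immunoglobulin-like adhesion protein, rose by 0.81, Afdn, the afadin that ties nectins to actin, by 0.78, and Jup, which encodes plakoglobin, by 0.72. None of the 10 passed without control 3 and TGF-β1 3, where Nectin4, Afdn and Jup had adjusted p of 0.0530, 0.157 and 0.107. Ctnna1, the α-catenin bound to E-cadherin, differed by 0.34 with weights (adjusted p = 0.250) and Ctnnd1, its p120 catenin, by 0.01. With weights 9 of the 10 differences were positive, and Vcl differed by -0.57 (adjusted p = 0.184). Its TGF-β1 arrays (10.10, 9.60 and 9.79) lay below controls 1 and 2 (10.86 and 10.38) and above control 3 (5.97). Without control 3, 1 of the 10 had all TGF-β1 arrays above both controls and 1 below. Of all genes 12.8% lay above and 12.3% below.

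Of 19 epithelial genes, several of them known targets of Snail and ZEB repression, 6 rose with array weights and 0 fell. Cldn3, a tight junction claudin, rose by 1.47 (adjusted p = 0.0013), Llgl2, a polarity protein, by 1.18 and Rab25, a GTPase of epithelial traffic, by 1.03. Cldn3 and Llgl2 also passed without control 3 and TGF-β1 3 (adjusted p = 0.0301 and 0.0207), and Rab25 did not (0.0851). Cldn3 was at 9.70, 9.44 and 10.38 in TGF-β1 1, 2 and 3, against 8.54, 8.05 and 9.60 in controls 1, 2 and 3, so that TGF-β1 3, low in Cdh1, was the highest array in this gene. Without control 3, 10 of the 19 had all TGF-β1 arrays above both controls and 0 below, where 12.8% of all genes were above. The list mean was 9.51, 9.44 and 9.75 in the TGF-β1 arrays, against 9.19, 8.84 and 7.51 in controls 1, 2 and 3.

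**Figure D4:**
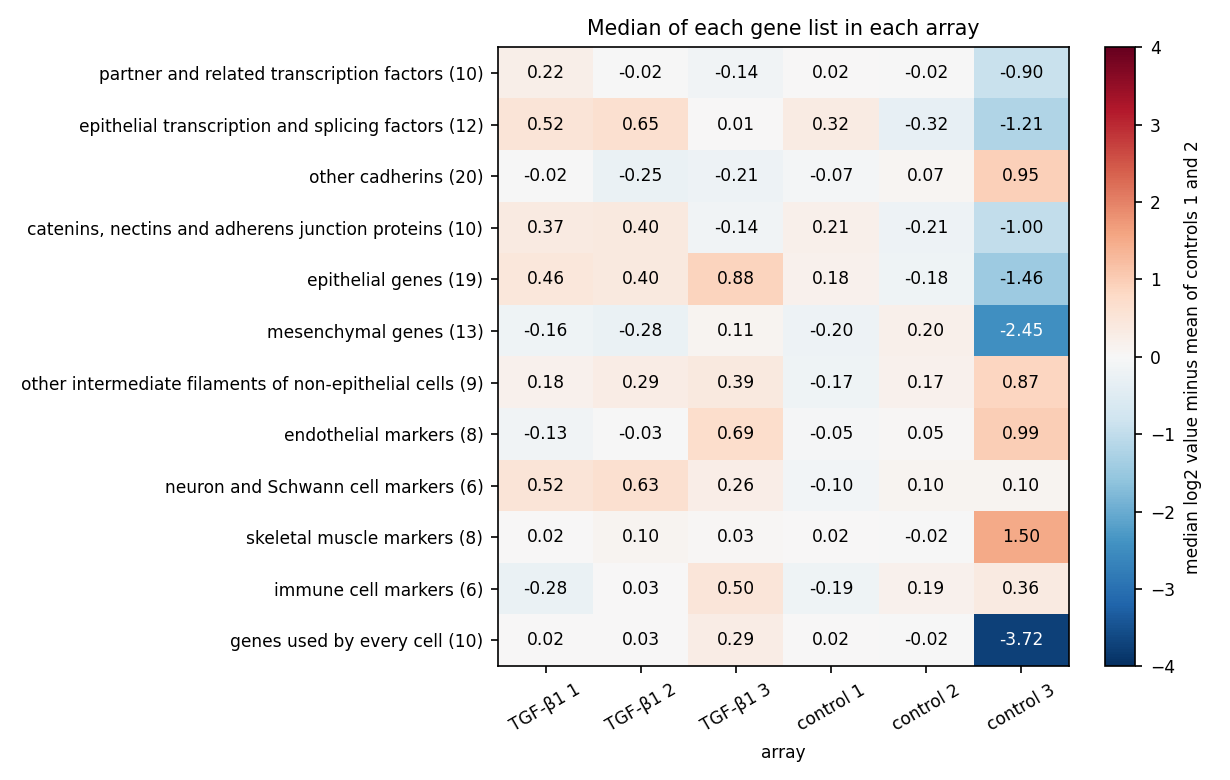
Median over each gene list (number of measured genes in parentheses) of the log2 value after the mean of controls 1 and 2 was subtracted, by array, TGF-β1 arrays left. The epithelial genes are at 0.40 to 0.88 in the TGF-β1 arrays, and control 3 departs from the other controls in most lists, down to -3.72 for genes used by every cell.

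Of 20 other cadherins, 0 rose and 2 fell with array weights, where 3.44% of all genes fell. Cdh11, the cadherin of mesenchymal and bone-forming cells, was at 9.61, 9.62 and 9.26 in the TGF-β1 arrays, against 10.35, 10.48 and 7.43 in controls 1, 2 and 3. All TGF-β1 arrays lay below controls 1 and 2 and above control 3. Cdh11 fell by 0.84 with weights (SE 0.16, adjusted p = 0.0107) and passed without control 3 and TGF-β1 3 as well (adjusted p = 0.0405). Cdh6, a cadherin of kidney and neural crest, fell by 1.35 with weights but had an adjusted p of 0.314 in the 4 arrays left without control 3 and TGF-β1 3, and control 2, at 8.72, stood alone above the 6.43 to 7.13 of the other arrays. Cdh3, the P-cadherin of basal epithelium, differed by 0.01 with weights.

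Of 13 measured mesenchymal genes, 0 rose and 1 fell with array weights, where 3.45% of all genes rose and 3.44% fell. It was Fn1 (fibronectin, a matrix protein used as a sign of the transition). Fn1 fell by 0.62 (adjusted p = 0.0276, and 0.151 without control 3 and TGF-β1 3). The list mean was 9.15, 9.20 and 9.67 in the TGF-β1 arrays, against 9.19, 9.65 and 7.39 in controls 1, 2 and 3, so that TGF-β1 3 and control 2 shared a level above that of TGF-β1 1, TGF-β1 2 and control 1.

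Of 10 measured partners and related transcription factors, 2 rose and 2 fell with array weights, where 3.45% of all genes rose and 3.44% fell. Without control 3 and TGF-β1 3, 0 of the 10 passed, where 2.59% of all genes did. There the adjusted p of these 4 lay between 0.0669 and 0.286. Foxc1, a forkhead factor of mesenchyme, rose by 0.78, and Six2, a homeobox factor of head mesenchyme and kidney, by 1.13. Prrx1 and Prrx2, paired-related factors of head and limb mesenchyme, fell by 1.03 and 0.93 (adjusted p = 0.0179 and 0.0499). Prrx1 was at 10.39, 10.52 and 10.75 in the TGF-β1 arrays, against 11.09, 11.66 and 6.64 in controls 1, 2 and 3, and its unweighted 6-array difference was 0.76. The helix-loop-helix partners of Twist did not pass: Tcf3 differed by 0.38, Tcf4 by -0.28 and Tcf12 by -0.38 with weights.

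The genes whose profile came nearest to a member were sought among 9501 genes of above-median level, by the root mean square difference of the centred log2 values over the 5 arrays other than control 3. Nearest to Cdh1 were C2cd5, a protein of vesicle traffic, Itprid2 and the epithelial membrane protease St14, at 0.0443, 0.0451 and 0.0771 log2 units. Nearest to Vim were Tagln2, an actin-binding protein, at 0.0227, Selenok, a selenoprotein of the endoplasmic reticulum, and Fbxw17. Nearest to Twist1 were the prostaglandin receptor Ptger3, at 0.0334, Fscn1, which encodes the actin-bundling protein fascin, and Ift57, a protein of cilia. In control 3, which the measure left out, Cdh1 and St14 were both low (8.30 and 5.79), whereas Vim stood at 8.70 and Selenok at 6.67, far from the 9.95 to 11.30 of Selenok in the other arrays.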

How the data were processed

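Total RNA of salivary glands of mouse embryos was hybridised as biotinylated cRNA to 6 Affymetrix arrays. The authors deposited 1 log2 value per probe set and array, computed with RMA per the submitters' processing notes. Its version and the genome build are not given in the sources used. They were used as deposited, without further scaling, although the interquartile range was 2.05 in control 3 and 3.17 to 3.26 in the other arrays. Arrays carry no read depth, so their number limits the precision. Of 22206 probe sets, 19572 had 1 gene symbol, 0 had several and 2634 were unnamed. The probe set of highest mean over the 6 arrays stood for a gene, which gave 19505 genes.

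TGF-β1 and control arrays were set against each other in R 4.3.3 with the package limma 3.58.1 (functions lmFit and eBayes, two-sided, group as the only term, Benjamini-Hochberg adjustment over all genes, passed under 0.05). The code was tested on simulated data. Alternatives were array weights, arrays left out, quantile normalization, median centring, a filter on dim genes, other summaries of probe sets, a trended robust prior and the replicate number as a block. The members, the 12 gene lists (139 genes, 128 measured), the tests and the rule for named genes were chosen with earlier results of these data known. That rule took the members, up to 3 genes per list and direction of smallest p among those passed with array weights (or the 1 of smallest unweighted p), the 3 profiles nearest to Cdh1, Vim and Twist1, and Actb and Gapdh. The salivary gland markers, and Klf4, Vcl, Ctnna1, Ctnnd1, Cdh3, Tcf3, Tcf4 and Tcf12, were added after the values had been seen. Promoter windows are RefSeq's.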

Additional observations from a re-analysis of the deposited data

How the results depend on the processing

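Of 128 alternative values of the 8 member differences, 115 kept their sign and their side of the threshold and 13 changed sign. Part of this count was fixed in advance. Each member had 1 probe set, so other summaries of probe sets left its difference unchanged. The dim filter, the trended robust prior and the replicate block could not change it either. Snai2 (0.78 with 6 arrays) was at -0.36 with array weights, -0.28 with weights and control 3 left out, and -0.33 with control 3 and TGF-β1 3 left out; leaving out 1 array gave -0.17 to 1.35. Twist1 (0.03) was at -0.96, -0.85 and -0.89 in the same settings and -0.041 after quantile normalization; leaving out 1 array gave -0.58 to 0.47. Cdh2 was at -0.056 after quantile normalization, and Vim ranged from -0.58 to 0.089 with 1 array left out. The sign of Snai2 turned only where control 3, the array of its lowest value, was removed or had a low weight; that of Twist1 also turned after quantile normalization and, at -0.28, without TGF-β1 3. Of the members 1 passed with array weights and 0 in every other setting. Over all genes, 1342 passed with array weights, 544 with weights and control 3 left out, 505 with control 3 and TGF-β1 3 left out, and 0 with 1 array left out or in any other setting. The labels do not say that the replicate numbers pair the arrays. The deviations of same-numbered arrays from their group means correlated at -0.07, -0.01 and -0.05. With 3 arrays per group and control 3 far from the others, these values cannot decide whether the arrays are paired. With the replicate block 0 members passed and no call changed. The difference of Cdh1 stayed at 1.52, which the balanced design fixes in advance, and its SE was 0.67 against 1.06 without the block. The median difference of all genes was -0.14 as deposited, -0.09 after quantile normalization, -0.12 after median centring and 0.01 without control 3.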

Other observations

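Some markers of neurons rose with array weights. Of 10 neuron and Schwann cell markers 6 were measured, of which 3 rose and 0 fell, where 3.45% of all genes rose. Stmn2, a microtubule regulator of growing neurites, rose by 0.72 (limma adjusted p = 0.0349). Tubb3, a neuronal tubulin, rose by 0.66 and Elavl4, a neuronal RNA-binding protein, by 0.65. Foxd3, Erbb3 and Cdh19 differed by 0.09, 0.54 and -0.20 and did not pass. None of them passed without control 3 and TGF-β1 3. Tubb3 was at 7.94, 8.00 and 7.89 in the TGF-β1 arrays, against 6.91, 7.44 and 6.62 in the controls. The groups did not overlap, which held for 11.6% of all genes over the 6 arrays. Elavl4 was at 4.65, 4.92 and 4.61, against 4.01, 4.11 and 4.81, below the lower quartile of every array. Cdh2 is also a cadherin of neurons. The part of neurons in its values was not tested.

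Of 8 endothelial markers 1 fell with array weights, where 3.44% of all genes fell. It was Kdr, the main receptor for VEGF, which fell by 1.35 (adjusted p = 0.0020). Kdr also passed without control 3 and TGF-β1 3 (adjusted p = 0.0256), where 2.59% of all genes passed. Kdr was at 6.59, 6.10 and 7.10 in the TGF-β1 arrays, against 7.60, 7.89 and 6.23 in controls 1, 2 and 3. Cdh5, the cadherin of endothelium, was at 5.45, 5.34 and 7.03, against 4.95, 5.52 and 6.94, high in TGF-β1 3 and control 3. Of 9 intermediate filament genes of other non-epithelial cells, 1 fell with array weights, against the same 3.44% of all genes. It was the neurofilament gene Nefm, which fell by 0.69. Its limma adjusted p was 0.288 in the 4 arrays left without control 3 and TGF-β1 3. Nefm, also a gene of neurons, thus went the other way from Stmn2, Tubb3 and Elavl4. Of 8 skeletal muscle and 6 immune cell markers 0 passed in any of the 5 limma fits compared, where 0% to 6.88% of all genes passed. In the unweighted fit the genes of smallest p were Myod1, a muscle determination factor, at -0.85, and Adgre1, a macrophage receptor, at -0.51. Both had control 3 as their highest array (7.28 and 7.16).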
